A study of Mus musculus with 18 samples.

Results

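Obstructed kidneys of mice that lost Myc in tubular cells were compared with obstructed kidneys of mice that lost Snail in endothelial cells. Both groups were taken as the sample labels give them, and together they made up 6 of the 18 libraries of the series, 3 against 3. The Myc cKO UUO kidneys carried GGT-Cre with floxed Myc alleles, and Cre made from this construct acts in proximal tubule cells. The Snail cKO UUO kidneys carried Cdh5-CreERT2 with floxed Snail alleles, a Cre of endothelial cells that needs tamoxifen; the tamoxifen schedule is not given in the sources used here. Here cKO stands for conditional knockout, and UUO for unilateral ureteral obstruction, in which one ureter is tied off and the kidney above it is injured and scarred. Both lines were on a mixed C57BL6 and Balb/c background. The Snail mice were 12 weeks old at the endpoint and the Myc mice 11 to 12 weeks old. The rest of the series held 3 healthy, 3 contralateral, 3 wild-type (WT) UUO and 3 Twist cKO UUO kidneys, all 12 from mice of the Twist line on a C57BL6, 129sv and Balb/c mix. The Twist cKO UUO mice carried Cdh5-CreERT2 and floxed Twist, the healthy mice floxed Twist without Cre, and among both WT UUO and contralateral kidneys 2 came from mice with Cre but no floxed allele and 1 from a mouse with floxed Twist but no Cre. No obstructed kidney without Cre from the Myc or the Snail line was analysed here, so the deleted gene, the Cre driver, the mouse line and age cannot be told apart in any difference below. RNA came from a piece of whole kidney, so fewer cells of a type and less RNA per cell cannot be told apart either.

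Myc is a transcription factor that binds DNA as a dimer with Max and drives ribosome production, nucleotide synthesis and glycolysis in growing cells; injured tubule cells are known to switch it on. Snail, the product of Snai1, is a zinc finger repressor that lowers junction genes such as cadherins and is one of the factors that push endothelial cells towards a mesenchymal state. In an obstructed kidney proximal tubule cells lose transporters and mitochondrial enzymes, the small vessels thin out, and myofibroblasts lay down collagen.

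Each library held between 56.72 and 72.15 M counts (M, 1e6). Levels below are TMM-scaled CPM, that is, counts relative to the library total (CPM) after scaling by the trimmed mean of M-values, and values of a group are listed in the order of replicates 1, 2 and 3. A gene was called at an adjusted p under 0.05 in the quasi-likelihood test of edgeR, adjusted after Benjamini and Hochberg over all 21050 genes tested, and differences are log2 values, Myc cKO UUO minus Snail cKO UUO, with their standard error (SE). The labels do not say whether libraries came from separate animals, so the p-values describe only the spread among libraries. That spread was estimated within the 6 groups of all 18 libraries. Replicates 1 and 3 of both groups had more counts of the Y-linked Ddx3y than of Xist, and replicate 2 of both had fewer. Mitochondrial ribosomal RNA took 23.65% to 25.98% of the counts in Snail cKO UUO and 25.43% to 34.9% in Myc cKO UUO. Along the leading principal component (52.3% of the variance over the 18 libraries), Myc cKO UUO replicate 3 lay at -4.27, between the unobstructed kidneys and the other obstructed ones, while the other 5 libraries compared lay between 50.4 and 74.7.

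The targeted genes did not separate the groups. Myc (chromosome 15, 61985391 to 61990374, mm10) had 24.7, 22.1 and 15.3 CPM in Snail cKO UUO and 18.8, 19.8 and 10.8 CPM in Myc cKO UUO, and the ranges overlapped. The difference of -0.33 ± 0.23 was not past the threshold (edgeR adjusted p = 0.52). Snai1 (chromosome 2, 167538195 to 167542814) had 1.98, 1.69 and 2.27 CPM in Snail cKO UUO and 1.57, 1.92 and 0.477 CPM in Myc cKO UUO, a difference of -0.58 ± 0.38 (edgeR adjusted p = 0.478). The Snail cKO UUO libraries therefore did not lie below the Myc cKO UUO libraries for Snai1, and cells other than those targeted can also hold both transcripts. Twist1, a related factor, differed by -0.62 ± 0.46 (edgeR adjusted p = 0.548). The 2 genes whose regulatory sequences drive the Cre constructs gave no call either: Ggt1, an enzyme of the proximal brush border, had 219, 86.3 and 170.1 CPM in Snail cKO UUO and 141, 86.5 and 185 CPM in Myc cKO UUO. Cdh5, the cadherin of endothelial junctions, had 55.8, 52.4 and 53.7 and 44.8, 45 and 41.6 CPM, and all 3 Myc cKO UUO libraries lay below the Snail cKO UUO libraries (edgeR adjusted p = 0.259). The same order without overlap held for 12% of all genes tested.

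Of the 21050 genes tested, 515 (2.45%) were called, 110 of them higher (0.523%) and 405 lower (1.92%) in Myc cKO UUO. The lower genes moved little, with 357 of the 405 under 1 on the log2 scale. With only the 6 libraries of the 2 groups fitted 16 genes were called, and 58 of the called genes named in the text lost their call. DESeq2 on all 18 libraries called 1389. With upper-quartile scaling in place of TMM the split was 164 higher and 237 lower. Called genes differed in base composition: the median GC content of the longest transcript was 44.2% for higher genes, 57.9% for lower genes and 49.7% for all genes. Where the average log2 CPM was 1 or more, the median difference was 0.18 for transcripts under 40% GC and -0.38 for those of 60% GC or more, and 16.4% of the latter were called lower. Across genes, the rank correlation between GC content and a library's deviation from the mean of all 18 was -0.259, -0.375 and -0.23 in the Myc cKO UUO libraries and 0.233, 0.0318 and 0.289 in the Snail cKO UUO libraries. When a smooth GC trend was taken out of each library, a step added after the data were seen, 65 genes were called (0.309%), 34 higher and 31 lower. Of these, 61 were also called without that step, all in the same direction. Of these 61 genes 41 are annotated as protein coding, 7 as processed and 3 as unprocessed pseudogenes, and 4 as small nuclear RNAs. The small nuclear RNA genes, which include the smallest adjusted p, and most of the pseudogenes are not described below. Others of the 61 lead the account. For genes called only without the step the value with the trend removed is given beside the result. The part of base composition in those differences was not tested further. The count also rested on single libraries: 57 genes were called without Snail cKO UUO replicate 1, 91 without Snail cKO UUO replicate 3, 153 without Myc cKO UUO replicate 2 and 261 without Myc cKO UUO replicate 3. Of the 61 genes called in both fits, 31 were called in all 6 fits that left out 1 library and kept the GC trend. With the trend removed and 1 library left out, 21 to 39 of the 65 genes kept their call. The lowest number was without Snail cKO UUO replicate 3 and the highest without Myc cKO UUO replicate 1. Below, fits that left out 1 library kept the GC trend unless stated. For a gene that lost its call in such a fit, the adjusted p is given for the library whose absence raised it most.

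**Figure D1:**
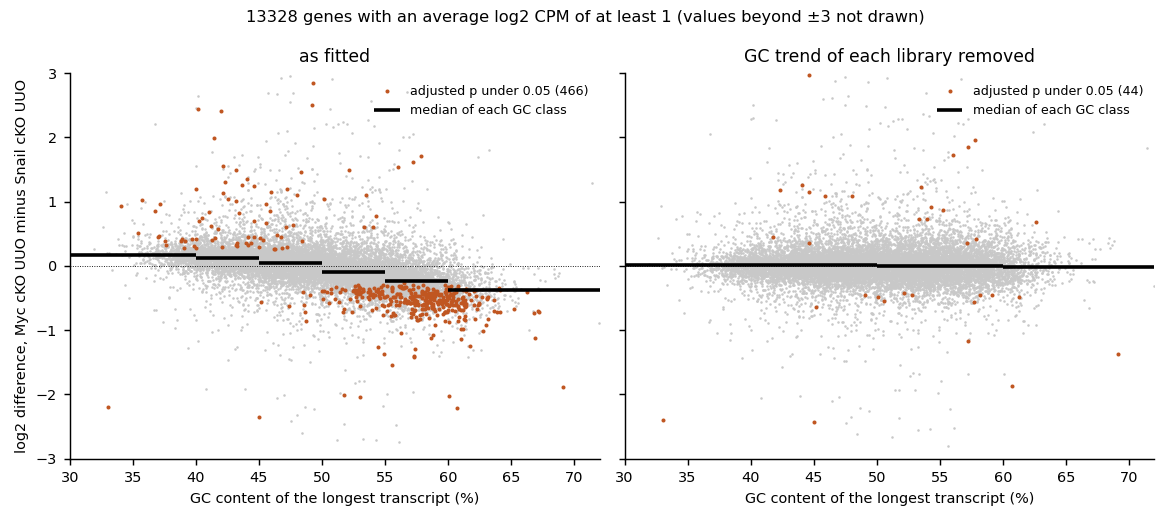
Log2 difference of each gene (y axis, Myc cKO UUO minus Snail cKO UUO) against the GC content of its longest transcript (x axis, percent), as fitted on the left and with the GC trend of each library removed on the right, for 13328 genes; orange points are called genes and black lines are the medians of 6 GC classes. On the left the medians run from 0.18 to -0.38, and on the right they lie near 0.

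A few of the genes within 10 Mb of Snai1 on chromosome 2 were among those that differed most clearly. Within 10 Mb of Snai1, 7 of 222 genes tested were called (3.15%, against 2.45% of all genes), and 4 with the GC trend removed (1.8%, against 0.309%). Of these 4, Serinc3, 0610039K10Rik and Pkig lie side by side, so they do not count as separate places. Serinc3, which encodes a multipass membrane protein of the serine incorporator family, lies at chr2:163623272-163645131 (mm10), 3.89 Mb from Snai1. It had 236, 271 and 201 CPM in Snail cKO UUO and 512, 569.5 and 664 CPM in Myc cKO UUO, a difference of 1.30 ± 0.15 (edgeR adjusted p = 0.000866). Each Snail cKO UUO library lay below all 15 other libraries of the series. The group means were 523 ± 27.6 CPM for WT UUO, 476 ± 44.6 for Twist cKO UUO, 514 ± 104 for healthy and 470 ± 34 for contralateral kidneys (SD, n = 3). In the same edgeR fit Serinc3 differed from WT UUO by -1.15 in Snail cKO UUO (adjusted p = 0.00392) and by 0.15 in Myc cKO UUO (adjusted p = 0.551).

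The 2 neighbours of Serinc3 had the same order of groups. 0610039K10Rik, annotated as an antisense RNA, starts inside Serinc3 on the opposite strand and had 0.204, 0.201 and 0.167 CPM in Snail cKO UUO and 0.721, 1.2 and 1.51 CPM in Myc cKO UUO. It was higher in Myc cKO UUO, by 2.58 ± 0.28 (edgeR adjusted p = 0.000417). Pkig, which encodes an inhibitor of protein kinase A, lies 13.3 kb beyond Serinc3 and had 13.7, 15.4 and 13 CPM in Snail cKO UUO and 19.9, 19.1 and 24.5 CPM in Myc cKO UUO. It was higher in Myc cKO UUO by 0.60 ± 0.10 (edgeR adjusted p = 0.00947), although not without Snail cKO UUO replicate 1 (adjusted p = 0.0522). For both genes every Snail cKO UUO library was again the lowest of all 18. Against WT UUO, Pkig differed by -0.77 in Snail cKO UUO (edgeR adjusted p = 0.00254) and by -0.18 in Myc cKO UUO (adjusted p = 0.253), and 0610039K10Rik by -2.72 (adjusted p = 0.000313) and -0.15 (adjusted p = 0.753).

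The start regions of these 3 genes are shown because the genes lie side by side and moved together. They are the RefSeq windows of build GRCm38.p6, 250 bases before to 50 bases after the annotated start, 5′ to 3′ on the gene's own strand, and capitals mark the transcribed bases. The windows are chr2:163645094-163645393 (minus strand) for Serinc3, chr2:163644600-163644899 (plus strand) for 0610039K10Rik and chr2:163658136-163658435 (plus strand) for Pkig, the first of its 3 windows.
Serinc3: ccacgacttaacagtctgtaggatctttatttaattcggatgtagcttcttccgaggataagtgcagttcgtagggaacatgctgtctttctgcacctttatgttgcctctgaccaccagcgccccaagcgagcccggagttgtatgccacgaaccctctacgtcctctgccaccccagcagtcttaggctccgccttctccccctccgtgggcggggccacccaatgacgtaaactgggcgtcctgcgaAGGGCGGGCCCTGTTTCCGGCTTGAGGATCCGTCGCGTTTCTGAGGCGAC
0610039K10Rik: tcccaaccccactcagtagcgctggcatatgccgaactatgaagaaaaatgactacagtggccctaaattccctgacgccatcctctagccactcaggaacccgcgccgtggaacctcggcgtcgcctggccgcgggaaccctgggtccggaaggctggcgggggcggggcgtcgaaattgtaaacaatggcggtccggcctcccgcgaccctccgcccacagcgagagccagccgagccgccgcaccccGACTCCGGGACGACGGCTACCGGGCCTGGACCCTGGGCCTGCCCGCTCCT
Pkig: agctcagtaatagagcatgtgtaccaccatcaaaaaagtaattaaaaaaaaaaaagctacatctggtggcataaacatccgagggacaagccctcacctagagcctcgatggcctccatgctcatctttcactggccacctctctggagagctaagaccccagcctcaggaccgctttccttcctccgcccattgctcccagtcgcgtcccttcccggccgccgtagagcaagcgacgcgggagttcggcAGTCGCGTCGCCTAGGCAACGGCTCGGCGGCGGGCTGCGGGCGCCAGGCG
The starts of Serinc3 and 0610039K10Rik face each other so that their transcripts overlap by 294 bases. Libraries were stranded, but the strand setting of the counting is not given in the sources used here, so reads from that overlap may have been assigned to either gene. The letters CAGGTG, read on both strands, are known as a word that Snail binds; they occurred in 0 of the 5 windows of these 3 genes and in 20.2% of all 32851 windows of this length. That the letters are absent from these windows says nothing about binding elsewhere.

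Atp9a, a flippase of endosomal membranes 1.09 Mb on the other side of Snai1 (chr2:168634438-168742409), went the opposite way. It had 83, 74.2 and 81.9 CPM in Snail cKO UUO and 31.4, 26.7 and 31.8 CPM in Myc cKO UUO, a difference of -1.41 ± 0.16 (edgeR adjusted p = 0.000701). The Snail cKO UUO libraries were the 3 highest of the series and the Myc cKO UUO libraries the 3 lowest, with 52.8 ± 11.7 CPM in WT UUO (SD, n = 3) between them. Myc cKO UUO differed from WT UUO by -0.82 (edgeR adjusted p = 0.00676) and Snail cKO UUO by 0.59 (adjusted p = 0.113). Pigt, a subunit of the enzyme that attaches GPI anchors, lies 3.03 Mb from Snai1 and was lower in Myc cKO UUO by -0.88 ± 0.17 (edgeR adjusted p = 0.0169), but not with the GC trend removed (adjusted p = 0.192) or without Snail cKO UUO replicate 1 (adjusted p = 0.0811). Around Myc on chromosome 15, 1 of 82 genes within 10 Mb was called (1.22%, against 2.45% of all genes), and with the GC trend removed the same gene alone (1.22%, against 0.309%). It was the processed pseudogene Gm10020, which had 2.71, 6.34 and 2.63 CPM in Snail cKO UUO and 0.0555, 0.0246 and 0 CPM in Myc cKO UUO (edgeR adjusted p = 0.0139, and 0.0676 without Myc cKO UUO replicate 2).

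**Figure D2:**
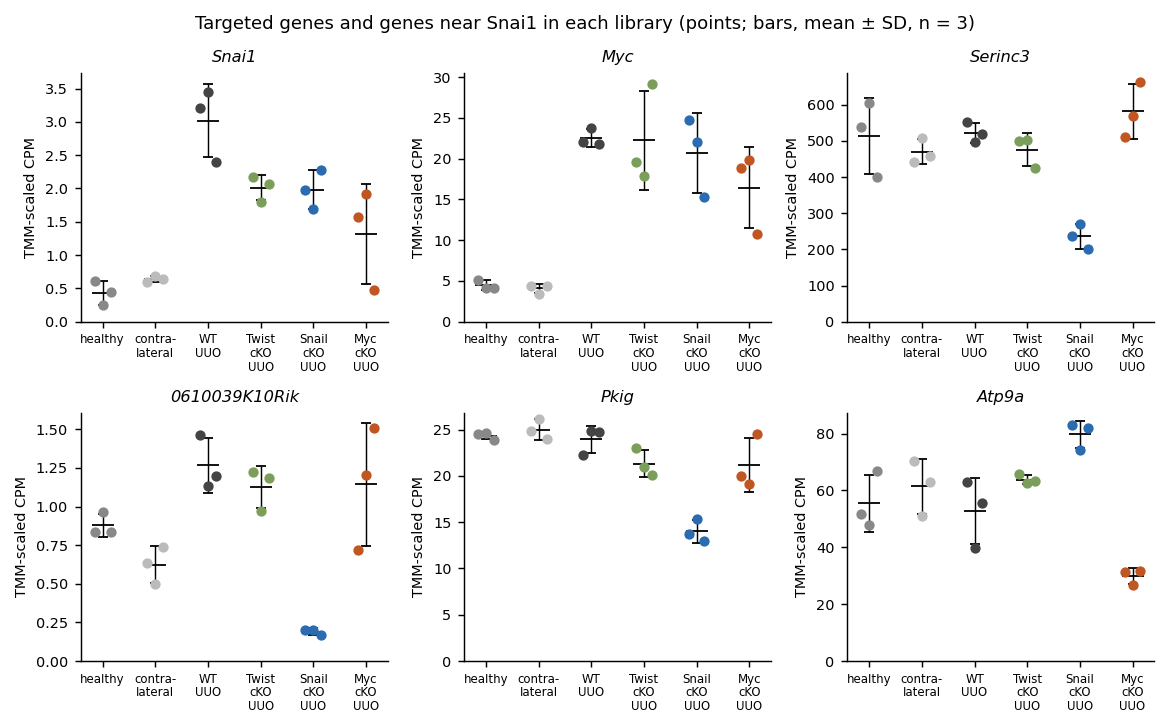
TMM-scaled CPM (y axis) of Snai1, Myc and 4 genes near Snai1 in the 18 libraries by group (x axis); points are libraries and bars the mean ± SD of 3. Snai1 and Myc overlap between the Snail and Myc groups, the Snail libraries lie lowest for Serinc3, 0610039K10Rik and Pkig, and for Atp9a they lie highest and the Myc libraries lowest.

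On chromosome 7, Trim5, Trim12a, Gvin1 and Gm1966 were near 0 in Myc cKO UUO, and Trim30d was lower. Trim5, Trim12a and Trim30d are members of a family of antiviral TRIM proteins, and Gvin1 is a very large GTPase induced by interferon. In the window from Trim5 to Gm1966 (chr7:104263386-106604035, mm10), 9 of 35 genes tested were called (25.7%, against 2.45% of all genes), 8 of them lower, and 7 with the GC trend removed (20%, against 0.309%). The window was drawn after the calls were seen and both its ends are called genes, so a high share is built into it. Trim12a had 1344, 1480 and 1478 raw counts in Snail cKO UUO against 3, 2 and 0 in Myc cKO UUO, and it was lower in Myc cKO UUO (edgeR adjusted p = 0.0102, and 0.052 without Myc cKO UUO replicate 2). Gvin1 had 458, 338 and 463 raw counts in Snail cKO UUO against 2, 8 and 1 in Myc cKO UUO, a fitted difference of -6.67 ± 1.14 (edgeR adjusted p = 0.0104). Trim5 had 5.59, 5.59 and 4.7 CPM and 0.0832, 0.0737 and 0.104 CPM, a difference of -5.91 ± 0.81 (edgeR adjusted p = 0.00327).

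Trim30d kept part of its level, with 6.7, 10.9 and 11.2 CPM in Snail cKO UUO and 1.55, 1.17 and 0.642 CPM in Myc cKO UUO, a difference of -3.09 ± 0.47 (edgeR adjusted p = 0.00696). Gm1966, annotated as an unprocessed pseudogene 381.4 kb from Gvin1, had 30.1, 36.1 and 35.1 CPM and 0.749, 0.553 and 0.104 CPM (difference -6.15 ± 0.62, edgeR adjusted p = 0.000245). Trim12c, which lies between Trim12a and Trim30d, was higher in Myc cKO UUO, with 13.7, 17.6 and 16.6 CPM in Snail cKO UUO and 29.7, 31.4 and 24.2 CPM in Myc cKO UUO. Its difference was 0.84 ± 0.19 (edgeR adjusted p = 0.0329), and it was not called with the GC trend removed (adjusted p = 0.187) or without Snail cKO UUO replicate 1 (adjusted p = 0.168). Against WT UUO, Trim5 differed by -5.29 in Myc cKO UUO (edgeR adjusted p = 0.00241) and by 0.62 in Snail cKO UUO (adjusted p = 0.687). Low values were not limited to Myc cKO UUO: healthy kidneys 1, 2 and 3 had 214, 1 and 1 raw counts of Trim12a and 40, 1 and 0 of Gvin1. Members of this family are near copies of each other, so the split of reads between Trim5, Trim12a and Trim12c is uncertain. The 20 interferon-stimulated genes on a list chosen for this tissue had 0 calls, against 2.45% of all genes tested. Their median difference was -0.037, against 0.009 for all genes, and with 1 library left out that median fell on either side of 0.

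**Figure D3:**
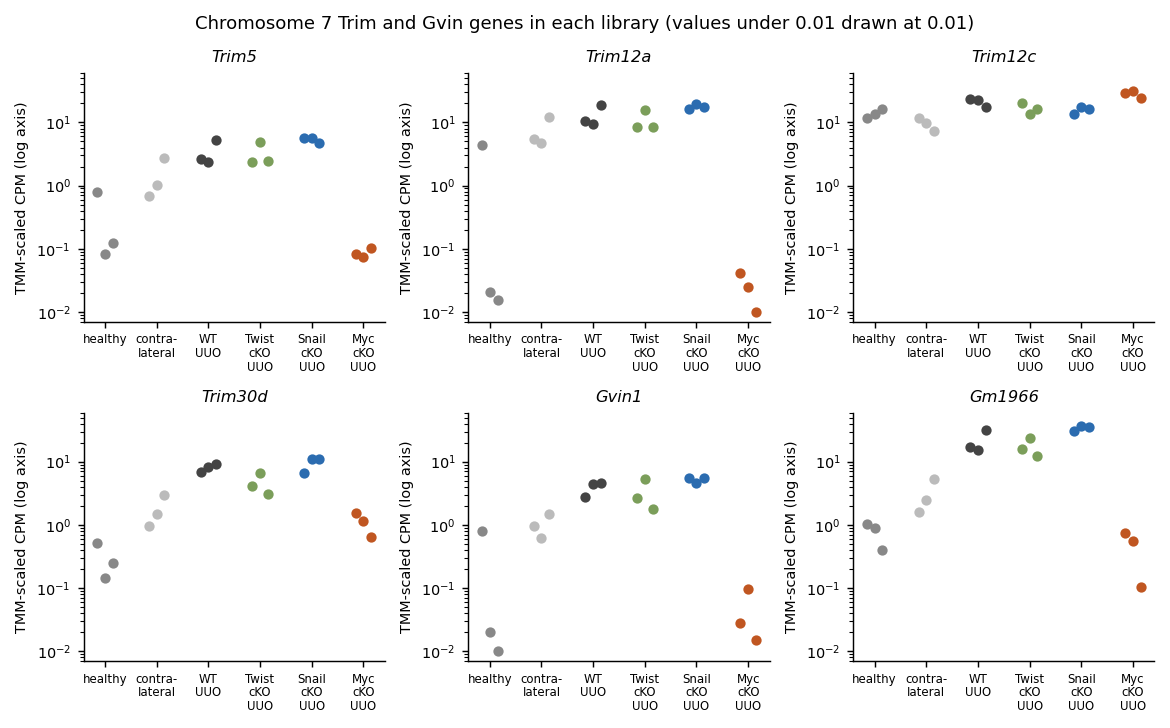
TMM-scaled CPM (y axis, log scale; values under 0.01 drawn at 0.01) of 6 chromosome 7 genes in the 18 libraries by group (x axis), 1 point per library. Trim5, Trim12a, Gvin1 and Gm1966 are low in the 3 Myc cKO UUO libraries and in healthy kidneys 2 and 3, while Trim12c is not.

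Other called neighbours lay on chromosomes 3, 13 and 17. Of the 58 genes called in both fits that have a position, 14 lay within 1 Mb of another one. They include genes that overlap and genes of the same family. The share among other genes was not computed, so the count does not measure clustering. Ctso, which encodes the lysosomal protease cathepsin O, and Tdo2, the tryptophan dioxygenase next to it on chromosome 3, were both higher in Myc cKO UUO. Ctso had 26.7, 24.9 and 22.1 CPM in Snail cKO UUO and 33.3, 38.6 and 38.2 CPM in Myc cKO UUO, a difference of 0.58 ± 0.081 (edgeR adjusted p = 0.00359). Tdo2 had 1.03, 0.67 and 0.429 CPM and 2.27, 2.49 and 2.63 CPM, a difference of 1.79 ± 0.30 (edgeR adjusted p = 0.00988). Ctso was lowest of all 18 libraries in the Snail group, and Tdo2 highest of all 18 in the Myc group.

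Rps3a1, a protein of the small ribosomal subunit, and its processed pseudogene Rps3a3 on chromosome 13 went opposite ways. Rps3a3 had 38, 99.6 and 77.2 CPM in Snail cKO UUO and 1.57, 1.82 and 1.36 CPM in Myc cKO UUO, a difference of -5.50 ± 0.39 (edgeR adjusted p = 6.19e-06). Rps3a1 had 145, 82.2 and 65.2 CPM and 220, 229.8 and 182 CPM, a difference of 1.11 ± 0.20 (edgeR adjusted p = 0.0134). The 2 share nearly the same sequence, so reads may have been assigned to either and both values are uncertain. Their sum was 183.4, 181.8 and 142.4 CPM in Snail cKO UUO and 221.6, 231.6 and 183.3 CPM in Myc cKO UUO, closer than either gene alone. Ero1lb, an oxidase of the endoplasmic reticulum on chromosome 13, had 3.88, 8.08 and 3.54 CPM in Snail cKO UUO and 13.5, 14.5 and 11.4 CPM in Myc cKO UUO (difference 1.35 ± 0.23, edgeR adjusted p = 0.00993, and 0.0615 without Snail cKO UUO replicate 1). Gpr137b-ps, a pseudogene beside it, had 0.347, 3.59 and 0.333 CPM and 9.75, 9.68 and 11.2 CPM (difference 2.85 ± 0.66, edgeR adjusted p = 0.0364; with the GC trend removed, 0.0962; without Snail cKO UUO replicate 1, 0.14). In both, Snail cKO UUO replicate 2 lay above replicates 1 and 3 and all 3 lay below the rest of the series.

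On chromosome 17, 17 of 144 genes tested from Wdr46 to H2-T3 were called (11.8%, against 2.45% of all genes), 15 of them lower in Myc cKO UUO, and 3 with the GC trend removed (2.08%, against 0.309% of all genes). This window too was drawn between called genes, so high shares are built into it. The transcripts in it had a median GC content of 55.6%. H2-Q7, a class I MHC gene, had 2.25, 3.56 and 2.35 CPM in Snail cKO UUO and 8.41, 6.83 and 9.91 CPM in Myc cKO UUO (difference 1.62 ± 0.35, edgeR adjusted p = 0.0281, and 0.148 without Snail cKO UUO replicate 1). H2-K2, another class I gene, had 10.7, 15.3 and 11.8 CPM and 3.81, 7.72 and 2.69 CPM (difference -1.41 ± 0.32, edgeR adjusted p = 0.0333; with the GC trend removed, 0.2; without Snail cKO UUO replicate 2, 0.0985). Class I genes are near copies, so the split of reads between them is uncertain. Wdr46, a nucleolar protein of ribosome assembly, had 16.5, 14.8 and 15.2 CPM in Snail cKO UUO and 9.05, 8.25 and 8.85 CPM in Myc cKO UUO (difference -0.83 ± 0.11, edgeR adjusted p = 0.00303). Rps18, the next gene, had 67.6, 80.4 and 68.5 CPM in Snail cKO UUO and 133, 96.2 and 142 CPM in Myc cKO UUO (difference 0.78 ± 0.16, edgeR adjusted p = 0.024, and 0.122 without Snail cKO UUO replicate 1). Msh5, a MutS homologue of meiosis, differed by -1.54 ± 0.29 (edgeR adjusted p = 0.0151; with the GC trend removed, 0.0829; without Snail cKO UUO replicate 3, 0.0719).

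Several tubule genes were higher with tubular Myc deleted than with endothelial Snail deleted. Gpx3, the secreted glutathione peroxidase that proximal tubule cells make, had 749, 732 and 961 CPM in Snail cKO UUO and 1171, 2237 and 3677 CPM in Myc cKO UUO. The difference was 1.54 ± 0.32 (edgeR adjusted p = 0.0213; with the GC trend removed, 0.0328; without Snail cKO UUO replicate 1, 0.119). Fggy, a sugar kinase, had 21, 26.2 and 23.8 CPM and 51.5, 50.2 and 56.6 CPM, a difference of 1.16 ± 0.15 (edgeR adjusted p = 0.00224). It was called in all 6 fits that left out 1 library and kept the GC trend. Iah1, an esterase, had 12.7, 10.1 and 11.8 CPM and 23.1, 22.2 and 28.9 CPM, a difference of 1.10 ± 0.19 (edgeR adjusted p = 0.0101), and was also called in all 6. In healthy kidneys these genes stood higher still, at 7594 ± 1016 CPM for Gpx3, 133 ± 13.9 for Fggy and 73 ± 13.8 for Iah1 (SD, n = 3). Against WT UUO, Fggy differed by 1.07 in Myc cKO UUO (edgeR adjusted p = 0.00169) and by -0.085 in Snail cKO UUO (adjusted p = 0.841).

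A further 6 of the largest increases were called, but not with the GC trend removed. Slc16a14, of the monocarboxylate transporter family, had 5.4, 3.93 and 5.51 CPM in Snail cKO UUO and 12, 25.5 and 47 CPM in Myc cKO UUO (difference 2.51 ± 0.53, edgeR adjusted p = 0.0265). Gatm, the first enzyme of creatine synthesis, had 29.1, 48.2 and 52.4 CPM and 70.6, 106 and 189.6 CPM (difference 1.50 ± 0.35, edgeR adjusted p = 0.0391). Acnat2, an acyl-CoA acyltransferase, had 39, 25.4 and 26.7 CPM and 39.9, 76 and 134 CPM (difference 1.46 ± 0.36, edgeR adjusted p = 0.0483). F13b, the B subunit of factor XIII, differed by 1.99 ± 0.47, Ano3 of the anoctamin family by 2.44 ± 0.58 and the sodium channel subunit Scn3a by 1.56 ± 0.38, with edgeR adjusted p-values of 0.04, 0.0409 and 0.0417. With the GC trend removed, adjusted p was 0.0665 for Slc16a14, 0.147 for Gatm, 0.137 for Acnat2, 0.147 for F13b, 0.15 for Ano3 and 0.138 for Scn3a. Without Snail cKO UUO replicate 1 none of the 12 largest increases was called (adjusted p from 0.0604 to 0.197), although all 12 kept their sign in every such fit. Gpx6, a glutathione peroxidase, had 0, 0 and 1 raw counts in Snail cKO UUO against 20, 35 and 471 in Myc cKO UUO (edgeR adjusted p = 0.0372; with the GC trend removed, 0.0968; without Snail cKO UUO replicate 1, 0.176), and no fold is given because the Snail group holds 1 count in all. Myc cKO UUO replicate 3, the library that stood apart, was the highest of the 6 for all of these genes but F13b. None of the 6 genes Slc16a14, Gpx3, Gatm, Acnat2, F13b and Ano3 was called without it (adjusted p from 0.0684 to 0.176). The same held without each of the 3 Snail libraries and without Myc cKO UUO replicate 2, while all 6 were called without Myc cKO UUO replicate 1.

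The tubule lists gave 0 or 1 call each, where 2.45% of all genes tested were called. Of 20 proximal tubule markers tested, 0 were called, 14 were above 0 and the median difference was 0.39 (0.53 with the GC trend removed), against 0.009 for all genes. That median was 0.13 without Myc cKO UUO replicate 3, 0.15 without Snail cKO UUO replicate 2, 0.61 without Myc cKO UUO replicate 2 and 0.63 without Snail cKO UUO replicate 3. Their summed level was 6393, 2724 and 5366 CPM in Snail cKO UUO and 5982, 4184 and 7093 CPM in Myc cKO UUO, which overlapped. Lrp2, the endocytic receptor megalin, had 1070, 918 and 1421 CPM and 1202, 1646 and 2175 CPM (difference 0.56 ± 0.27, edgeR adjusted p = 0.304). Slc22a8, an organic anion transporter, had 5.26, 6.83 and 11 CPM and 12.9, 35.5 and 58.7 CPM (difference 2.21 ± 0.66, edgeR adjusted p = 0.0937), and the lactate transporter Slc5a12 differed by 1.56 ± 0.44 (adjusted p = 0.0804). Among 9 genes of gluconeogenesis and fructose metabolism 0 were called, 8 were above 0 and the median was 0.88. G6pc, the last enzyme of glucose release, had 22.7, 12.1 and 21.1 CPM and 33.1, 55.3 and 275 CPM (difference 2.70 ± 0.76, edgeR adjusted p = 0.0791). Of 19 genes of tubular amino acid catabolism, Gatm alone was called, and Gldc, the glycine decarboxylase, differed by 2.27 ± 0.60 (edgeR adjusted p = 0.0629). Conjugation enzymes (0 of 14 called, median 0.58) and kidney cytochrome P450 genes (0 of 17, median 0.52) also had medians above that of all genes. Without Myc cKO UUO replicate 3 the medians were 0.45 for gluconeogenesis and fructose metabolism, 0.17 for amino acid catabolism, 0.34 for conjugation and 0.18 for cytochrome P450 genes, and the last was 0.79 without Myc cKO UUO replicate 2.

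Of the complex I genes of the mitochondrial genome, 3 were called higher, and mt-Nd3 alone, at a far lower level than mt-Nd2, was called lower. Whether reads were split between these genes and similar sequences elsewhere was not tested. Of 15 mitochondrially encoded genes 3 were called higher and 1 lower, against 0.523% and 1.92% of all genes. Their median was 0.81 (0.63 with the GC trend removed, and 0.43 without Myc cKO UUO replicate 3). The 3 encode subunits of complex I: mt-Nd2 had 502, 409 and 456 CPM in Snail cKO UUO and 713, 876 and 1203 CPM in Myc cKO UUO (difference 1.03 ± 0.24, edgeR adjusted p = 0.0332). The differences of mt-Nd5 and mt-Nd6 were 0.96 ± 0.24 and 0.94 ± 0.23 (edgeR adjusted p = 0.0442 and 0.0454). With the GC trend removed none of the 3 was called (adjusted p = 0.192, 0.216 and 0.27), nor without Snail cKO UUO replicate 1 (highest adjusted p 0.154). The lower one, mt-Nd3, of the same complex, had 3.16, 2.61 and 3.44 CPM and 0.375, 0.381 and 1.25 CPM (difference -2.20 ± 0.44, edgeR adjusted p = 0.0193; with the GC trend removed, 0.0482; without Snail cKO UUO replicate 1, 0.0853). Nuclear genes of oxidative phosphorylation had 0 of 23 called with 22 above 0 (median 0.31), the citric acid cycle 0 of 20 with 18 above 0 (median 0.27), and fatty acid oxidation 0 of 27 with 24 above 0 (median 0.25). Without Myc cKO UUO replicate 3 these medians were 0.15, 0.069 and -0.074. That of fatty acid oxidation was 0.13 without Snail cKO UUO replicate 2 and 0.43 without Myc cKO UUO replicate 2.

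Some genes of vessels and of the matrix were lower in Myc cKO UUO, most of those named by less than 1 on the log2 scale. With the GC trend removed, 0 genes of the endothelial, the extracellular matrix and the myofibroblast and pericyte lists were called. Ephb4, an ephrin receptor of venous endothelium, had 76.2, 68.7 and 74.7 CPM in Snail cKO UUO and 44, 52 and 43.2 CPM in Myc cKO UUO. The difference was -0.66 ± 0.090 (edgeR adjusted p = 0.00303; with the GC trend removed, 0.11). Efnb1, an ephrin ligand, had 27.7, 27.3 and 28.9 CPM and 16.8, 16.4 and 16.9 CPM, a difference of -0.74 ± 0.10 (edgeR adjusted p = 0.00303; with the GC trend removed, 0.0482). Dag1, the laminin receptor dystroglycan, had 179, 188 and 189 CPM and 121, 127 and 132 CPM, a difference of -0.55 ± 0.091 (edgeR adjusted p = 0.00961; with the GC trend removed, 0.0482). These 3 were called in every fit that left out 1 library and kept the GC trend. Cul7, a cullin, was too, with a difference of -0.77 ± 0.10 (edgeR adjusted p = 0.00303; with the GC trend removed, 0.041).

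Of 21 endothelial markers 2 were called, both lower (against 1.92% of all genes), 15 were below 0 and the median was -0.22 (-0.11 with the GC trend removed). Eng, the TGF-beta co-receptor endoglin, had 85.7, 76.1 and 76.1 CPM in Snail cKO UUO and 58.7, 55.8 and 57.9 CPM in Myc cKO UUO (difference -0.46 ± 0.078, edgeR adjusted p = 0.00991). Plvap, which forms the diaphragms of fenestrated capillaries, had 87.7, 70.2 and 79 CPM and 50.7, 50.9 and 60.3 CPM (difference -0.55 ± 0.10, edgeR adjusted p = 0.0151). Their calls went with the GC trend removed (adjusted p = 0.411 and 0.434) and without Snail cKO UUO replicate 1 (adjusted p = 0.0677 and 0.0988). Not every endothelial gene lay below 0. Pecam1 had 66.4, 74.7 and 68.2 CPM and 71.5, 70.4 and 67.9 CPM (difference 0.0033 ± 0.13, edgeR adjusted p = 0.995), and the VEGF receptor Kdr had 43.8, 44.1 and 53.5 CPM and 45.9, 51.1 and 60.2 CPM (difference 0.15 ± 0.14, adjusted p = 0.653). Its ligand Vegfa differed by 0.18 ± 0.16 (edgeR adjusted p = 0.63) and Nrp2, a co-receptor, by -0.50 ± 0.13 (adjusted p = 0.052). Gpr124, an adhesion receptor of vessels, and Notch3, a receptor of mural cells, differed by -0.56 ± 0.10 and -0.65 ± 0.11 (edgeR adjusted p = 0.0137 and 0.00961; with the GC trend removed, 0.378 and 0.251; without Snail cKO UUO replicate 1, 0.0864 for Gpr124, and without Snail cKO UUO replicate 3, 0.0519 for Notch3).

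With no library left out, matrix genes had the lowest list median. Of 26 extracellular matrix genes 2 were called, both lower (against 1.92% of all genes), 24 were below 0 and the median was -0.56 (-0.38 with the GC trend removed). It was -0.27 without Myc cKO UUO replicate 3, where 2 other lists lay lower, and -0.89 without Myc cKO UUO replicate 1. Col4a2, a basement membrane collagen, had 721, 633 and 710.4 CPM in Snail cKO UUO and 479, 455 and 413 CPM in Myc cKO UUO (difference -0.62 ± 0.13, edgeR adjusted p = 0.024). Loxl1, an enzyme that crosslinks elastin, had 37.8, 47.8 and 43.3 CPM and 28.6, 28 and 23.2 CPM (difference -0.69 ± 0.16, edgeR adjusted p = 0.0391). With the GC trend removed the adjusted p was 0.46 for Col4a2 and 0.467 for Loxl1, and the highest adjusted p with 1 library left out was 0.121 (without Snail cKO UUO replicate 1) and 0.123 (without Snail cKO UUO replicate 2). The fibrillar collagen gene Col1a1 spread widely, with 476, 376 and 768 CPM and 569, 249 and 97.5 CPM (difference -0.82 ± 0.50, edgeR adjusted p = 0.439). Acta2, the actin of myofibroblasts, had 76, 89 and 92 CPM and 160.3, 42.5 and 30.9 CPM (difference -0.14 ± 0.49, edgeR adjusted p = 0.929). Of 17 myofibroblast and pericyte markers 1 was called, Pdgfrb, the receptor of pericytes for PDGF, with 175, 172 and 153 CPM and 127, 118 and 79.2 CPM (difference -0.62 ± 0.15, edgeR adjusted p = 0.0449; with the GC trend removed, 0.314; without Snail cKO UUO replicate 1, 0.187). That 1 call of 17 stands beside 2.45% of all genes tested. In this list 16 were below 0 and the median was -0.41, against 0.009 without Myc cKO UUO replicate 3, -0.19 without Snail cKO UUO replicate 3 and -0.92 without Myc cKO UUO replicate 1. The summed level was 1167, 1327 and 1305 CPM in Snail cKO UUO and 1465, 986 and 639 CPM in Myc cKO UUO, from highest in Myc replicate 1 to lowest in Myc replicate 3.

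The laminin chains Lama3 and Lama5 were lower in Myc cKO UUO. Lama3, the epithelial chain of laminin-332, had 65, 42.6 and 69.7 CPM in Snail cKO UUO and 24.1, 9.85 and 10.1 CPM in Myc cKO UUO, and the 3 Myc libraries were the lowest of all 18. The difference was -2.01 ± 0.42 (edgeR adjusted p = 0.0244; with the GC trend removed, 0.0777; without Snail cKO UUO replicate 1, 0.102). Lama5 had 294, 234 and 304 CPM and 171, 171 and 165 CPM (difference -0.72 ± 0.12, edgeR adjusted p = 0.0101; with the GC trend removed, 0.187; without Snail cKO UUO replicate 1, 0.0622). Against WT UUO, Lama3 differed by -2.07 in Myc cKO UUO (edgeR adjusted p = 0.00809) and by -0.065 in Snail cKO UUO (adjusted p = 0.967). Megf6, an EGF-repeat protein, differed by -2.03 ± 0.48 (edgeR adjusted p = 0.0403; with the GC trend removed, 0.192; without Snail cKO UUO replicate 1, 0.179). Of 13 claudins and epithelial cadherins 1 was called, the tight junction gene Cldn3, with 28.9, 23.3 and 23.4 CPM and 16.9, 10.7 and 9.97 CPM (difference -1.01 ± 0.20, edgeR adjusted p = 0.0176; with the GC trend removed, 0.217; without Snail cKO UUO replicate 1, 0.102). That 1 call of 13 stands beside 2.45% of all genes tested. The 10 transcription factors of epithelial-mesenchymal transition had 0 calls, all 10 were below 0 and the median was -0.42 (-0.11 without Myc cKO UUO replicate 3 and -0.63 without Myc cKO UUO replicate 1).

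**Figure D4:**
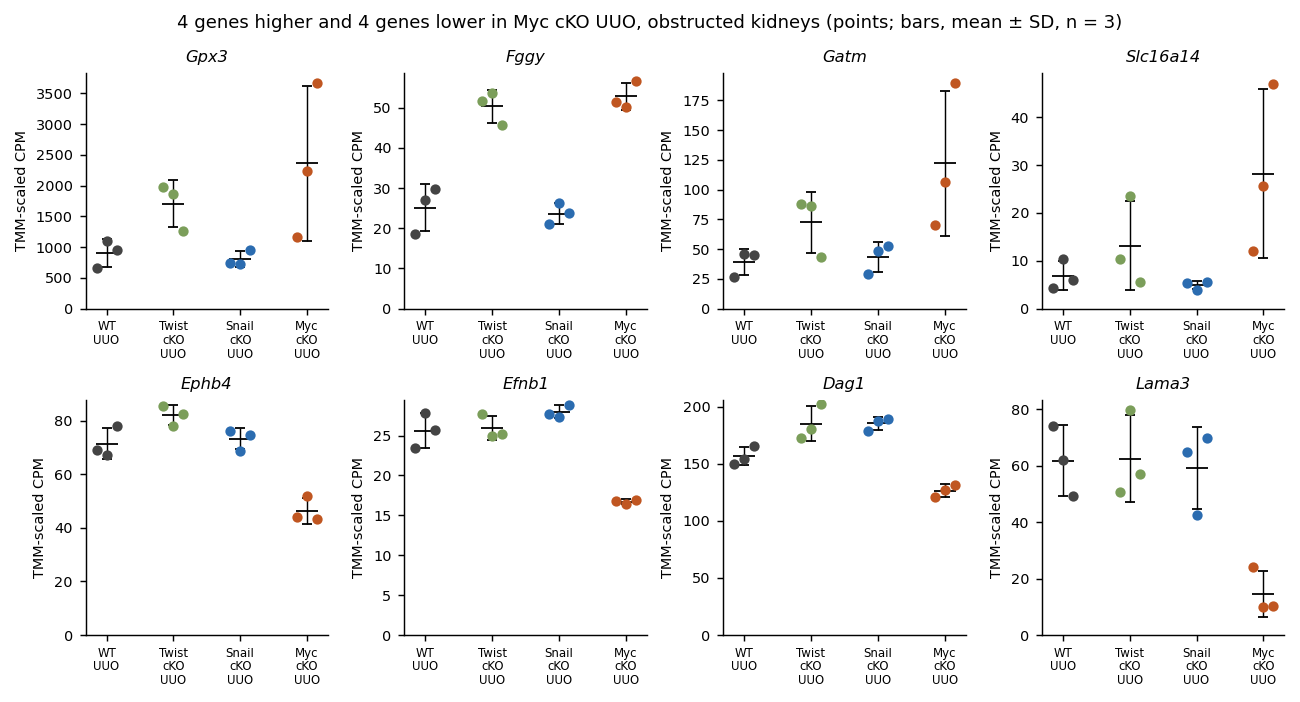
TMM-scaled CPM (y axis) of 4 genes higher (Gpx3, Fggy, Gatm, Slc16a14) and 4 genes lower (Ephb4, Efnb1, Dag1, Lama3) in Myc cKO UUO, in the 12 obstructed libraries by group (x axis); points are libraries and bars the mean ± SD of 3. For each of the 8 genes the Snail and Myc groups do not overlap, and the Myc group spreads most for Gpx3, Gatm and Slc16a14. All 8 were chosen from the called genes, and the rule that picked some of them required no overlap. Of all genes tested, 22.1% did not overlap.

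Bop1, Polr1a and 4 nucleotide enzymes, growth genes that Myc is known to drive, were lower in Myc cKO UUO. Of 30 ribosome biogenesis genes 2 were called, both lower in Myc cKO UUO (against 1.92% of all genes), with a list median of -0.18 (-0.11 without Snail cKO UUO replicate 1 and -0.10 without Myc cKO UUO replicate 3). Bop1, which processes ribosomal RNA, had 19.8, 18.6 and 18.6 CPM in Snail cKO UUO and 14.3, 11.8 and 12.9 CPM in Myc cKO UUO (difference -0.54 ± 0.093, edgeR adjusted p = 0.0102). Polr1a, the largest subunit of RNA polymerase I, had 38.7, 38.7 and 36.4 CPM and 30.1, 30.4 and 30.1 CPM (difference -0.33 ± 0.070, edgeR adjusted p = 0.0265). Of 24 genes of nucleotide and polyamine synthesis 4 were called, all lower (against 1.92% of all genes), while the list median was 0.039 and 13 members were above 0. Cad, which starts pyrimidine synthesis, had 29.8, 26.3 and 26.6 CPM and 19.1, 16.9 and 11.5 CPM (difference -0.80 ± 0.17, edgeR adjusted p = 0.0269). The purine enzymes Gart, Atic and Impdh1 differed by -0.43 ± 0.092, -0.39 ± 0.10 and -0.70 ± 0.15 (edgeR adjusted p = 0.0265, 0.0469 and 0.0285). None of these 6 was called with the GC trend removed (adjusted p = 0.246 for Bop1, 0.127 for Polr1a, 0.232 for Cad, 0.158 for Gart, 0.166 for Atic and 0.393 for Impdh1). Without Snail cKO UUO replicate 1 none was called either (adjusted p from 0.0646 to 0.195). Against WT UUO, Bop1 differed by -0.77 in Myc cKO UUO (edgeR adjusted p = 0.00124) and by -0.22 in Snail cKO UUO (adjusted p = 0.278).

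Atic carries in its start region the letters CACGTG, the core word bound by Myc with Max, and its window is shown for that reason. The RefSeq window (GRCm38.p6, chr1:71556906-71557205, plus strand, 250 bases before to 50 after the start) is printed 5′ to 3′ with the word in capitals.
Atic: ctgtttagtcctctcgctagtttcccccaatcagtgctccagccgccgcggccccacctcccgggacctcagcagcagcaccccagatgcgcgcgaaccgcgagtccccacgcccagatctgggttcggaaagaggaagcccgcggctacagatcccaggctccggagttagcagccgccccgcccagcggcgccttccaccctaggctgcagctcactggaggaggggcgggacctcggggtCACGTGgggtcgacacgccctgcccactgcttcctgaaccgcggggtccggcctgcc
The word occurred in 7 of the 24 windows found for 20 genes of the nucleotide and polyamine list (29.2%), in 8.93% of the 16030 windows of genes tested and in 7.15% of all 32851 windows. Among genes called in both fits it occurred in 4 of the 44 windows found for 32 genes (9.09%), near the share of genes tested. Myc is known to drive such growth genes, so the share in the nucleotide and polyamine list is no result of these libraries. A match is a description of these letters and not of binding. It is its own reverse complement, so both strands were covered. Myc and its partners (0 of 14 called, median 0.001), glycolysis (0 of 20, median -0.22) and the cell cycle (0 of 22, median 0.004) gave no call, against 2.45% of all genes tested. With 1 library left out the medians of the first and the last list fell on either side of 0, and that of glycolysis was -0.12 without Snail cKO UUO replicate 1 and -0.35 without Myc cKO UUO replicate 3. Hk2, a hexokinase of injured tubules, had 17.4, 12.6 and 14.5 CPM and 16.1, 11.6 and 6.79 CPM (difference -0.37 ± 0.34, edgeR adjusted p = 0.642). Phgdh, which starts serine synthesis, differed by -0.99 ± 0.28 (edgeR adjusted p = 0.0724). Hif1a, the oxygen-sensing factor, differed by 0.16 ± 0.19 (edgeR adjusted p = 0.729), and 0 of 21 hypoxia targets were called (median 0.056, and -0.12 without Myc cKO UUO replicate 3).

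A few genes of immunity and copper or stress handling were called. C5ar2, a receptor of complement C5a, had 0.359, 0.188 and 0.179 CPM in Snail cKO UUO and 2.59, 2.22 and 1.19 CPM in Myc cKO UUO, a difference of 3.04 ± 0.52 (edgeR adjusted p = 0.0102, and 0.0599 without Snail cKO UUO replicate 3). Cd59a, which blocks the membrane attack complex, had 8.74, 5.08 and 8.81 CPM and 16.4, 15.6 and 21.8 CPM, a difference of 1.25 ± 0.22 (edgeR adjusted p = 0.0111). Il3ra, the alpha chain of the interleukin 3 receptor, had 4.39, 3.99 and 3.67 CPM and 1.11, 0.896 and 0.582 CPM, a difference of -2.22 ± 0.30 (edgeR adjusted p = 0.00303). All 3 were called with the GC trend removed (adjusted p = 0.025, 0.0441 and 0.0108). Atp7a, a copper pump, had 48.7, 53.2 and 46.6 CPM and 64.3, 70.7 and 67.9 CPM, a difference of 0.45 ± 0.066 (edgeR adjusted p = 0.0047). The histone gene Hist1h2bm had 0.443, 0.978 and 0.881 CPM and 2.96, 2.37 and 2.18 CPM, a difference of 1.70 ± 0.30 (edgeR adjusted p = 0.011, and 0.0604 without Snail cKO UUO replicate 1). Tkt of the pentose phosphate pathway and the AP-1 factor Jund differed by -0.49 ± 0.10 and -0.71 ± 0.14 (edgeR adjusted p = 0.0235 and 0.0168; with the GC trend removed, 0.137 and 0.428; highest with 1 library left out, 0.121 without Snail cKO UUO replicate 3 and 0.0937 without Snail cKO UUO replicate 1). Gm26917, annotated as a long noncoding RNA on chromosome 17, had 647, 552 and 686 CPM and 180, 177 and 154 CPM (difference -1.88 ± 0.25, edgeR adjusted p = 0.00274). Its GC content of 69.1% lies in the class where the groups differed most. With the GC trend removed its difference was -1.37 (edgeR adjusted p = 0.0127). The pseudogene Rpl15-ps2 differed by -2.04 ± 0.39 (edgeR adjusted p = 0.0166; with the GC trend removed, 0.0567; without Myc cKO UUO replicate 2, 0.066).

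Injury markers and immune cell lists did not separate the groups at the threshold, which 2.45% of all genes tested passed. Havcr1, the injury marker KIM-1, had 448, 328 and 382 CPM in Snail cKO UUO and 525, 142 and 350.3 CPM in Myc cKO UUO (difference -0.19 ± 0.99, edgeR adjusted p = 0.955). Lcn2, the lipocalin of injured tubules, had 209.8, 132 and 113 CPM and 113, 154 and 192 CPM (difference 0.013 ± 0.23, edgeR adjusted p = 0.987). Tubular injury genes had 0 of 20 called, macrophage markers 0 of 15, T cell markers 0 of 11, B and plasma cell markers 0 of 7 and neutrophil markers 0 of 6. Erythroid genes had 0 of 7 called, all 7 above 0 and a median of 2.00, or 0.42 without Myc cKO UUO replicate 3. Their summed level was 29.4, 21.3 and 23.4 CPM in Snail cKO UUO and 26.1, 49.7 and 181 CPM in Myc cKO UUO, high in Myc replicate 3, and the globin Hbb-bs differed by 2.22 ± 0.57 (edgeR adjusted p = 0.0558). Adipocyte markers summed to 32, 42.7 and 160.3 CPM in Snail cKO UUO and 133, 32 and 189.9 CPM in Myc cKO UUO (Plin1 and Cfd at 0 in Snail replicate 2, Plin1 at 0 in Myc replicate 2). Urothelial markers summed to 15.2, 29.5 and 103 CPM and 91.2, 28.3 and 3.19 CPM (Upk2 and Krt15 at 0 in Myc replicate 3). The part of blood, fat and urothelium in the differences above was not tested.

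**Figure D5:**
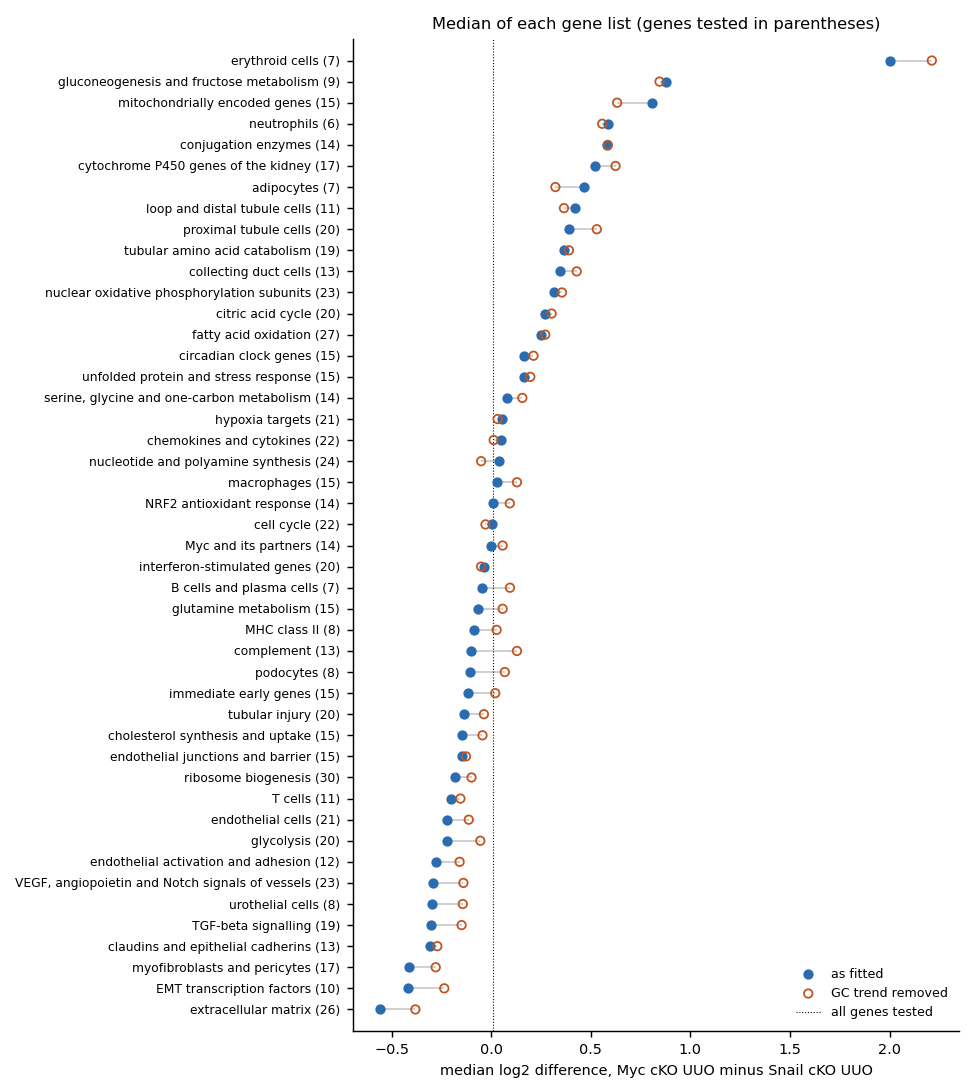
Median log2 difference (x axis, Myc cKO UUO minus Snail cKO UUO) of 46 gene lists (y axis, number of genes tested in parentheses); filled points are the values as fitted, open points those with the GC trend of each library removed, and the dotted line is the median of all genes tested. The extracellular matrix list is lowest at -0.56 and the erythroid list highest at 2.00.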

How the data were processed

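Whole-kidney RNA was sequenced as stranded whole-transcriptome libraries, read as 2 reads of 75 bases, per the labels' protocols. The deposited table holds raw counts per gene symbol for 31787 symbols; the authors used the build mm10 with HTSeq, DESeq2 and bcl2fastq 1.8.4, per the submitters' processing notes. Aligner, annotation and strand setting: not given in the sources used here. A further 6 columns matched no sample and entered no step.

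The counts went into edgeR 4.0.16 under R 4.3.3 (filterByExpr, TMM, robust glmQLFit and glmQLFTest, two-sided) in 1 fit over all 18 libraries with 6 group means and 12 residual degrees of freedom. Positions, GC content and biotypes came from GENCODE M21 (GC for 97.9% of the genes tested), and older symbols were matched through RefSeq. The GC trend was a lowess curve (span 0.3) per library, entered as an offset. The scripts were tested on simulated counts. Alternatives were other scalings, filters and tools (DESeq2 1.42.0, limma 3.58.1), sex as a covariate, and leaving out each library.

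The members and gene lists were chosen with earlier results of these data known. Genes are named as follows: the targeted genes and Cre drivers; the 12 largest differences in each direction among called genes of average log2 CPM 1 or more, groups that do not overlap and no clone name; called or lowest-p list members; 10 anchor genes; and up to 4 called genes within 10 Mb of Myc or Snai1. Some genes called in both fits, and Ephb4, Notch3, Gpr124, Lama5, H2-K2, Trim12c and Pigt, were chosen after their values were seen. Of the genes these rules pick, 2 are not reported here.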

Additional observations from a re-analysis of the deposited data

How the results depend on the processing

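Of 21050 genes tested, 515 were called (110 higher, 405 lower). The count moved by over 1.5 times with DESeq2 (1389; 448 higher, 941 lower), with only the 2 groups fitted (16; 5 higher, 11 lower), with a 2-fold minimum (105; 57 higher, 48 lower) and with the GC trend removed, an alternative chosen after seeing the data (65; 34 higher, 31 lower). The higher count alone moved with no count filter (70), with at least 1 CPM in 3 libraries (177) and with sex as a covariate (199), and the lower count alone with upper-quartile scaling (237). With 1 library left out, with or without the GC trend, 21 to 691 genes were called, 10 to 246 higher and 11 to 445 lower. The range without the GC step was 57 to 691, the lowest without Snail cKO UUO replicate 1.

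Among the named genes that were not called, signs changed in some settings. With the GC trend removed Ggt1 was at 0.016, and with no count filter Pecam1 was at -0.0024. With 1 library left out, with or without the GC trend, Myc ranged from -0.49 to 0.044, Snai1 from -0.94 to 0.17, Ggt1 from -0.49 to 0.31, Pecam1 from -0.023 to 0.080, Hif1a from -0.071 to 0.27, Acta2 from -1.23 to 0.27, Havcr1 from -0.76 to 0.19 and Lcn2 from -0.18 to 0.44. No named gene that was called changed sign in any setting run. The cause of these moves was not tested. Counts of 0 to 8 per library in 1 of the groups limit the precision for Trim5, Trim12a, Gvin1, Gm10020 and Gpx6. No paired analysis was possible because replicates were numbered in record order.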
